A study of Mus musculus with 9 samples.

Results

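The transcripts described here are those of wild-type mouse bone marrow-derived macrophages after treatment with interferon-gamma. Members were the genes at 1 TPM or more in each of the 3 wild-type libraries. TPM is an abundance corrected for transcript length and scaled to a fixed library total, so that genes can be compared with each other. Of 29763 named genes, 10468 (35.2%) met this rule and 10955 were listed at 0 in all 3 libraries. A further 7446 lay below 1 TPM in every library with some signal in at least 1 of them, and 894 reached 1 TPM in only 1 library (515 genes) or 2 (379 genes). The members held between 99.7% and 99.8% of the TPM on named genes. Nothing was compared between conditions, so all values are levels, with the SD over 3 libraries.

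The cells were primary macrophages grown from the bone marrow of wild-type mice over 7 days in medium with 30% supernatant of L929 fibroblasts, a source of macrophage colony-stimulating factor. They were then given interferon-gamma at 40 ng/ml for 12 h, and polyadenylated RNA with integrity numbers above 9 was sequenced. The series, on mitochondrial complex IV remodelling and interferon signalling, holds 9 libraries of 3 genotypes: wild type, Ndufa4l3-miR147 knockout and Ndufa4 knockout, all treated in the same way. Only the wild-type libraries were used here. No sex, age or strain is given in the labels, and no group was left without interferon-gamma, so a high level is not evidence of induction. The labels call the replicates technical, and the SD therefore covers the spread between libraries and not between mice.

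Interferon-gamma binds the IFNGR1 and IFNGR2 receptor chains on macrophages, and the kinases JAK1 and JAK2 then start a signal to the nucleus. The signal reaches promoter elements known as GAS and switches on a first set of genes that includes IRF1. IRF1 and related factors act through ISRE-type elements on genes for guanylate-binding proteins (GBPs), immunity-related GTPases (IRGs), antigen presentation and the immunoproteasome. Resting and activated macrophages alike carry a large lysosomal, complement and iron-storage programme.

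Promoters of abundant interferon-response genes are shown here because they carry the letters these factors recognise. The stretches are the 150 bases before the gene start in RefSeq on GRCm38.p6, written 5′ to 3′ on the strand of the gene, for Irf1 at chr11:53769864-53770013 (+), Gbp7 at chr3:142530186-142530335 (+), Tgtp2 at chr11:49064213-49064362 (-), Igtp at chr11:58199406-58199555 (+) and Irgm2 at chr11:58214827-58214976 (+). None of the 5 stretches overlaps an annotated exon. Capitals mark TTCNNNGAA, the GAS letters, which read the same on both strands, and the ISRE-type letters, GAAA, any 2 bases and GAAA again, searched on both strands and thus also seen as TTTC, any 2 bases and TTTC. The motifs do not overlap each other in these stretches.
Irf1: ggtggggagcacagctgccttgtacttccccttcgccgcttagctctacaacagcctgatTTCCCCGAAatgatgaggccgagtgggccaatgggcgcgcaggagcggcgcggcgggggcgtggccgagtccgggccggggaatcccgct
Gbp7: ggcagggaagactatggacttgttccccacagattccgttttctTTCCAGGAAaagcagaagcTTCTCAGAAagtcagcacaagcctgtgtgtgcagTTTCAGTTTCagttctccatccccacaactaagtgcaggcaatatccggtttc
Tgtp2: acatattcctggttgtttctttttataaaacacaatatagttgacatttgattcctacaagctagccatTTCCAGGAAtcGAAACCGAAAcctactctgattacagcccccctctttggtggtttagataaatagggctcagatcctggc
Igtp: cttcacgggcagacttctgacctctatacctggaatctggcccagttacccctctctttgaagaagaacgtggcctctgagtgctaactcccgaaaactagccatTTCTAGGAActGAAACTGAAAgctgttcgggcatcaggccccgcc
Irgm2: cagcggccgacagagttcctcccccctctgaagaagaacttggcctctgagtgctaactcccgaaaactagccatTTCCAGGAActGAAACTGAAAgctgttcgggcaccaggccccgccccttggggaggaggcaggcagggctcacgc
Positions are those of the start of a match, counted back from the gene start. Irf1 held 1 GAS match, at -90. Gbp7 held 2 GAS matches, at -106 and -87, and 1 ISRE-type match at -53. In the 3 IRG genes the order and the spacing were the same: in Tgtp2 the GAS match began at -81 and the ISRE-type match at -70, in Igtp at -45 and -34, and in Irgm2 at -75 and -64. The start of the ISRE-type match lay 11 bases after that of the GAS match in each. Of 32851 RefSeq promoter windows, 149 held both motifs, and 5 had this arrangement: those of Igtp, Irgm2, Tgtp1, Tgtp2 and Gm12185. The spacing was first seen in these promoters and then counted, so the count describes them and tests nothing. The 3 printed IRG stretches also share letters beside the motifs, so these are not independent cases. All 5 genes were members, as were 8349 of the 27025 genes with a window. They ranged from 26.4 TPM (Gm12185) to 669 TPM (Tgtp2).

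The windows searched run from 250 bases before to 50 after each RefSeq gene start. The GAS letters stood in 9.55% of the 27025 genes with a window and in 8.20% of the 8349 members with one, but in 14 of the 36 genes with a window on the interferon-gamma response list (38.9%). The ISRE-type letters stood in 3.99% of all genes with a window, in 4.05% of members, and likewise in 14 of the 36 interferon-gamma response genes. All 4 GBP genes with a window, Gbp2, Gbp3, Gbp5 and Gbp7, held the ISRE-type letters, as did 6 of 8 IRG genes and 14 of 30 type I interferon-stimulated genes. The GAS letters stood in 1 of 5 immunoproteasome genes and 1 of 15 genes of MHC class I and peptide loading. The ISRE-type letters stood in 1 (20%) and 4 (26.7%) of them, against 3.99% of all genes. Among the 4 CXC chemokine genes with a window, 1 held the GAS letters and 2 the ISRE-type letters. Neither motif stood in any of the 5 CC chemokine genes with a window. The CCAAT box, read on both strands, stood in 14 of 15 genes of MHC class I and peptide loading (93.3%) against 41.1% of all genes. A match shows only that the letters are present, and the lists were put together from genes already known to respond to interferon.

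The label of the cells was checked against their markers before anything else. The lysosomal glycoprotein gene Cd68 stood at 2317, 2354 and 2348 TPM and ranked 41st of all members by mean TPM. Csf1r, the receptor for macrophage colony-stimulating factor, stood at 993, 965 and 953 TPM (rank 156). Emr1, the older symbol of Adgre1, which encodes F4/80, stood at 410, 405 and 410 TPM (rank 372). Gbp2, the marker of the interferon state, stood at 3577, 3595 and 3788 TPM (rank 22). All 4 markers were therefore abundant in every library, as were Lyz2 at 4585 TPM, Spi1 at 397 TPM and the Fc receptor gene Fcgr1 at 668 TPM. Of 24 genes of macrophage identity, 22 were members and 18 of those exceeded 100 TPM. The exceptions were Emr4 and Tyrobp. Tyrobp, the adaptor of Trem2 and other macrophage receptors, was listed at 0 in all 3 libraries although Trem2 itself stood at 1094 TPM, so a 0 in the table is described only as a listing at 0.

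Markers of other cell types were low, but differed between libraries. Summed TPM over 5 B-cell markers was at most 1.32 and over 6 T and NK cell markers at most 2.995, with Nkg7 and Ncr1 listed at 0. The immunoglobulin heavy-chain gene Ighm, which is not among these markers, was a member at 44.2 TPM. The 4 dendritic cell markers summed to between 1.98 and 2.405 TPM, with Flt3 and Zbtb46 below 1 TPM. Of the 3 megakaryocyte markers only Pf4 was a member, at 94.1 TPM, while Itga2b and Gp9 stayed below 1 TPM. The 6 neutrophil markers summed to 3.68, 45.3 and 68.3 TPM in replicates 1, 2 and 3, with S100a9 and S100a8 as the main part and Elane and Mpo below 1 TPM. The 4 erythroid markers summed to 10.2, 148 and 33.4 TPM, with Alas2 below 1 TPM. The 6 stromal and endothelial markers summed to 8.81, 45.9 and 45.8 TPM, mostly from Col3a1 in replicates 2 and 3. In bulk RNA, fewer cells of a type and less RNA per cell cannot be told apart.

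Replicate 1 stood apart in a small set of low-abundance transcripts. A library was said to stand apart in a gene where it was at least 5-fold below or above both of the others. For a low library both others had to be at 5 TPM or more, and for a high library only that library itself. The counts of low and high genes are therefore not alike, and the rule was set after the values had been seen. By this rule 16 genes were low only in replicate 1, against 1 gene in replicate 2 and 2 in replicate 3, while 3, 6 and 6 genes were high in 1 library only. The 16 genes summed to 23.9 TPM in replicate 1, 327 TPM in replicate 2 and 293 TPM in replicate 3, which is 0.0026%, 0.036% and 0.032% of the named TPM. Only 5 of the 16 were members. Car3, a muscle and fat carbonic anhydrase, stood at 2.52, 78.7 and 51.8 TPM. Col3a1, a fibrillar collagen, stood at 2.61, 34.6 and 36.5 TPM, and S100a8, a neutrophil and monocyte calcium-binding protein, at 2.72, 14.8 and 26.3 TPM. S100a9, its partner, stood at 0.955, 27.9 and 37.3 TPM and so was not a member. The other non-members included the keratin Krt19 (0.171, 12.3 and 7.76 TPM), the neutrophil granule gene Ngp (0, 7.06 and 9.70 TPM), Myt1 (0.0093, 10.7 and 9.06 TPM) and T, which encodes brachyury (0, 12.1 and 8.79 TPM). Hemoglobin transcripts were highest in replicate 2: Hba-a2 stood at 5.42, 118 and 15.1 TPM, Hba-a1 at 3.57, 50.4 and 14.7 TPM, and Hbb-bs at 6.36, 97.1 and 18.1 TPM. Hba-a1 and Hba-a2 are near-identical copies that share reads. The source of these transcripts was not tested.

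**Figure D1:**
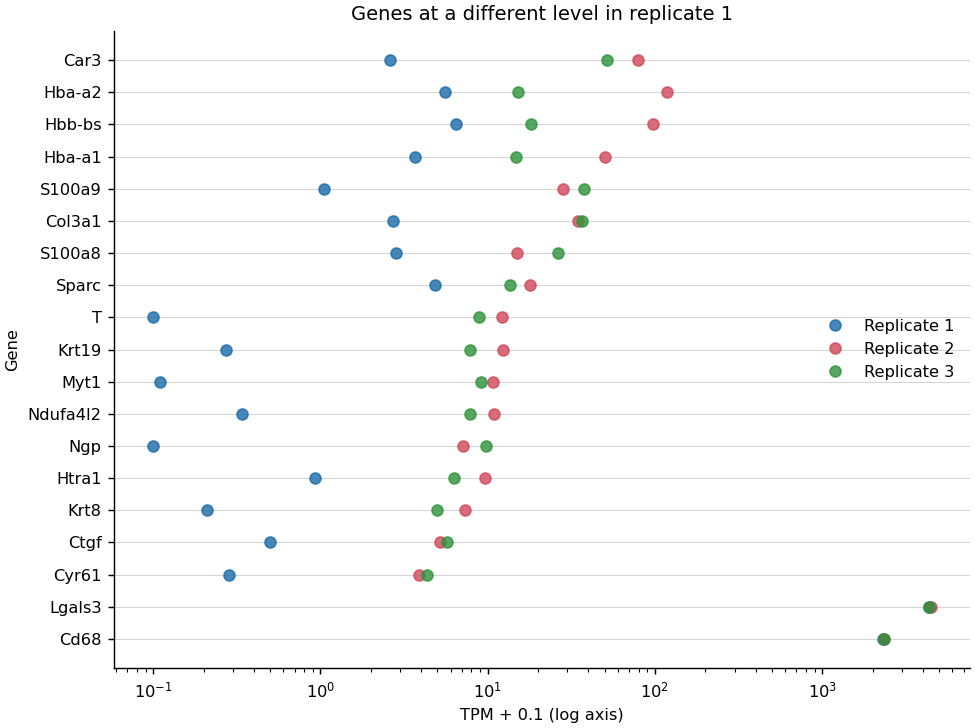
TPM + 0.1 on a log axis for genes lowest in replicate 1, with Lgals3 and Cd68 for comparison. Each point is 1 library. Not all of these genes meet the rule for a gene low only in replicate 1, and the hemoglobin genes are highest in replicate 2. For genes such as Car3 the blue point of replicate 1 lies at 2.52 TPM and the others at 51.8 TPM or more, while the 3 points of Cd68 lie between 2317 and 2354 TPM.

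Apart from these genes the libraries were close to each other. The median member had an SD of 0.065 on the log2(TPM + 1) scale and a coefficient of variation of 4.88%. Across members, the rank correlation between 2 libraries lay between 0.9943 and 0.9954, a description across genes, which are not independent. Between 36 and 56 members differed by 1 or more on the log2 scale in a pair of libraries. Of the 7328 members with a mean of 10 TPM or more, 77 differed 1.5-fold or more between the highest and lowest library and 26 differed 2-fold or more. The spread shrank with abundance: the median coefficient of variation was 13.8% for members between 1 and 2 TPM, 8.86% between 2 and 10, 4.39% between 10 and 100, 2.54% between 100 and 1000 and 1.64% above that. TPM keep no read depth, so the counting error behind a value is unknown.

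The abundance of members spanned more than 4 orders of magnitude, with a few transcripts holding much of the total. The median member stood at 21.5 TPM, the quartiles at 8.17 and 56.7 TPM, and the 99th percentile at 1251 TPM. The single most abundant gene held 1.56% ± 0.029 (SD, n = 3) of the members' TPM. The 10 most abundant held 8.83% ± 0.045, the 100 most abundant 30.97% ± 0.069 and the 1000 most abundant 68.7% ± 0.080. The first 50% of the total was reached with 322 ± 2.5 genes and the first 90% with 3690 ± 8.5. By level, 491 members lay between 1 and 2 TPM, 2649 between 2 and 10, 5793 between 10 and 100, 1388 between 100 and 1000, and 147 at 1000 TPM or above. These 147 genes carried 36.8% of the total and the 5793 of the middle class 22.5%.

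**Figure D2:**
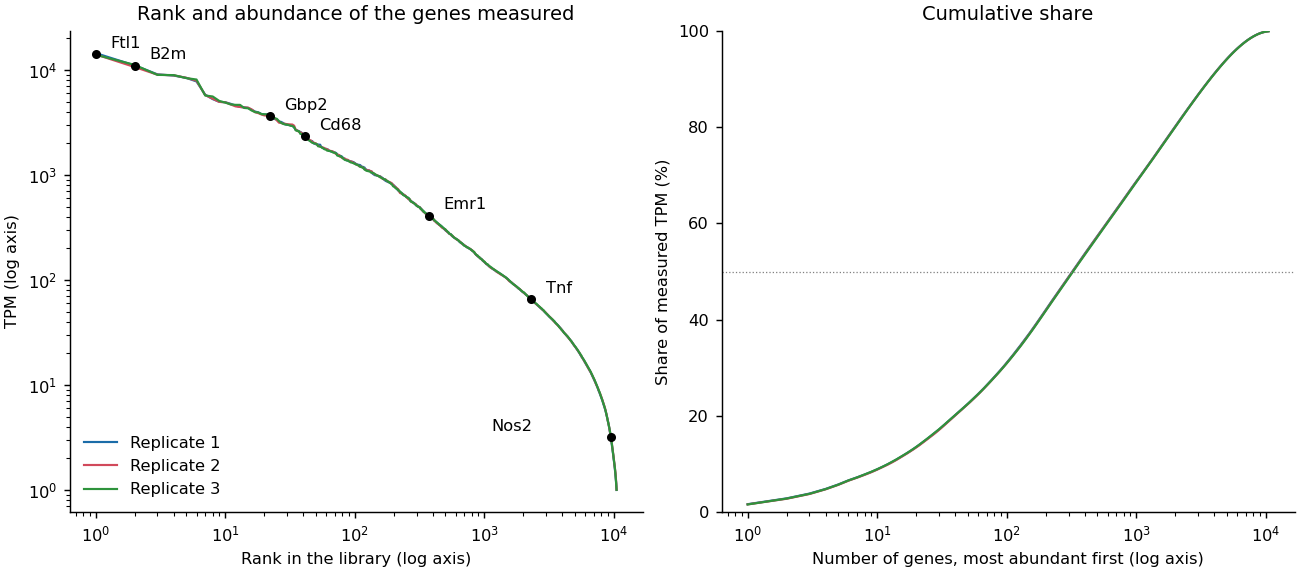
Left, TPM against rank in each library, both on log axes, with named genes at their mean; right, cumulative share of members' TPM against the number of genes, most abundant first, on a log axis, with a dotted line at 50%. The lines of the 3 libraries coincide, and the dotted line is crossed at 322 genes.

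At the limit, the lowest library of Prss36 stood at 1.0001 TPM (1.0001, 1.203 and 2.09) and it was kept, while Dnase1 (0.9999, 1.02 and 1.21 TPM) was not. Only 12 non-members had a mean of 5 TPM or more, S100a9, Krt19 and T among them.

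Ferritin light chain was the most abundant transcript. Ftl1, which with Fth1 forms the cage that stores iron, stood at 14512, 14108 and 14006 TPM. Fth1, the heavy chain with the ferroxidase site, had rank 3 at 9101, 9031 and 8997 TPM, and the ratio of light to heavy chain was 1.57 ± 0.020 in TPM. B2m, the light chain of all MHC class I molecules, had rank 2 at 11069, 10687 and 11197 TPM. The ranges of these 3 genes did not overlap.

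The rest of the top 10 was mitochondrial, cytoskeletal, lysosomal and, for 1 gene, of translation. The mitochondrially encoded complex IV subunits mt-Co1, mt-Co2 and mt-Co3 followed at 8911 ± 44, 7945 ± 169 and 5410 ± 169 TPM. Tmsb4x, the main monomeric actin-binding peptide, stood at 8417 ± 28 TPM. Ctsd, a lysosomal aspartic protease, stood at 5778 ± 52 TPM, the elongation factor gene Eef1a1 at 5012 ± 58 TPM, and Psap, the precursor of the saposins, at 4925 ± 19 TPM. All 10 genes had the same rank in each library, and no 2 neighbours among them overlapped.

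Below rank 10 the order was less certain. In the top 30, the ranges of 14 of 29 neighbouring pairs overlapped, so those neighbours did not differ beyond their spread. Lyz2, the macrophage lysozyme, stood at 4585 ± 75 TPM. Lgals3 at 4391 ± 53 TPM and C1qb at 4389 ± 64 TPM overlapped. From Spp1 (3892 TPM) down to Rplp1 (3530 TPM), through Lgals1, Ctss, Ifitm3, Gbp2 and mt-Atp6, each gene overlapped the next. Cd99 was the least stable of the 30, at 2837, 3138 and 3645 TPM, with rank 34 in replicate 1 and 23 in replicate 3. This symbol could not be matched to a single entry in the annotation used here (GENCODE M21). Of the 100 most abundant genes, 96 were in the top 100 of each library.

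**Figure D3:**
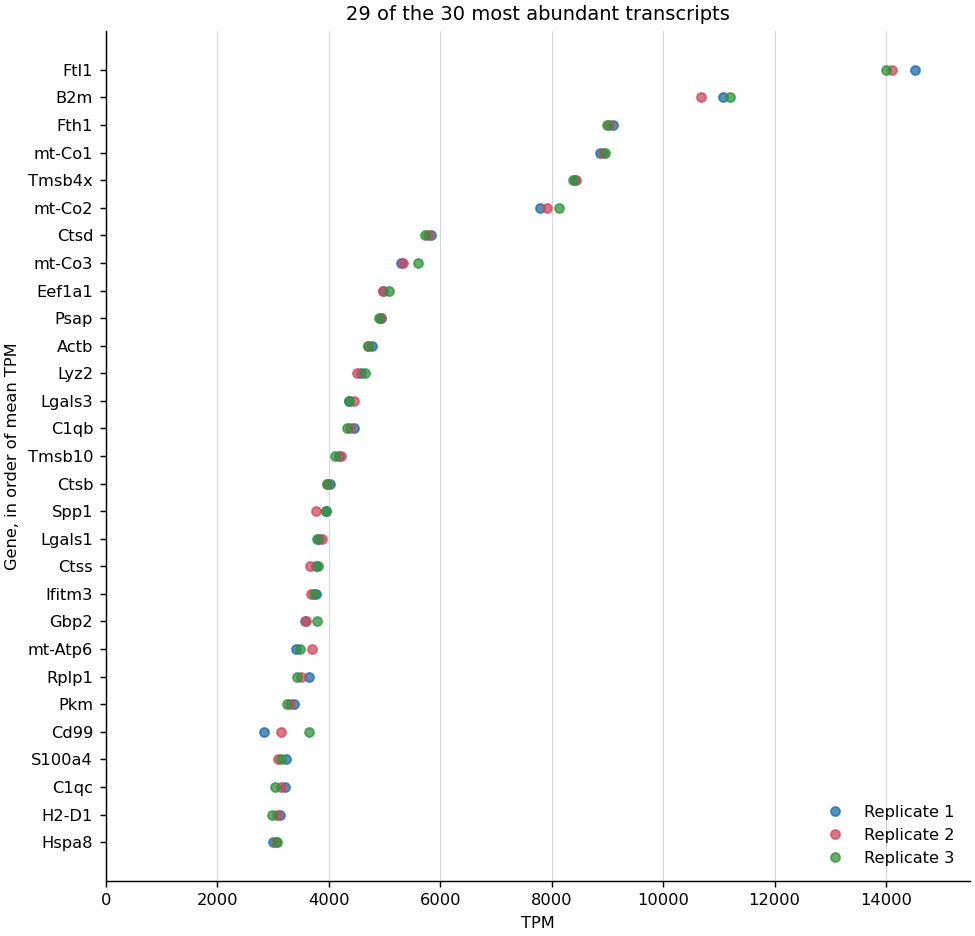
TPM of 29 of the 30 most abundant transcripts in order of mean TPM; each point is 1 library. Ftl1 lies near 14208 TPM and B2m near 10984 TPM, the 10 uppermost genes keep their order in every library, and Cd99 is spread from 2837 to 3645 TPM.

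By gene list, translation and the lysosome took the largest parts. Lists overlap, so shares are not additive: 1080 members were in at least 1 list and held 52.9% of the members' TPM. Cytosolic ribosomal proteins, with 84 of 87 genes as members, held 8.25% ± 0.10. Cathepsins and lysosomal hydrolases held 5.91% ± 0.035, the actin cytoskeleton 5.30% ± 0.020, and the 13 mitochondrially encoded mRNAs 4.59% ± 0.061. The interferon-gamma response list, with 53 of 55 genes as members, held 4.34% ± 0.065, of which B2m alone was 27.8%. Its median member stood at 248 TPM, against 21.5 TPM over all members. A high median was not particular to this list. The median was 545 TPM in the lysosomal list, 323 TPM in the actin cytoskeleton and 42.9 TPM in the transcription factors of macrophages. Of the 100 most abundant genes, 17 were ribosomal proteins, 14 lysosomal, 11 mitochondrially encoded, 10 of the actin cytoskeleton and 6 of the interferon-gamma response.

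**Figure D4:**
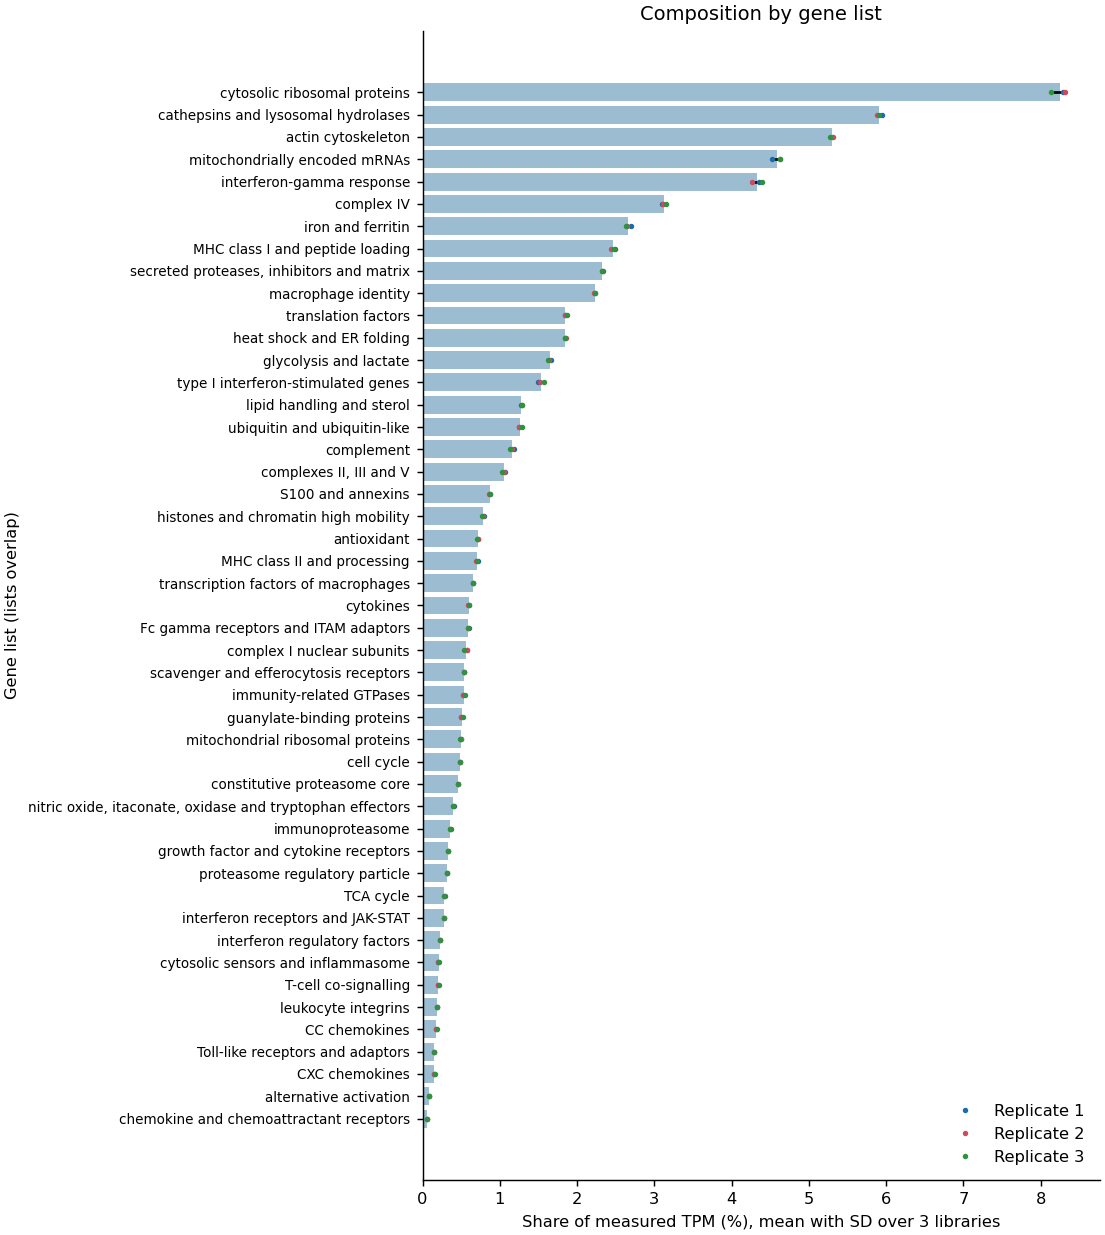
Share of members' TPM held by each gene list; bars are means over 3 libraries with the SD, and points are single libraries. Cytosolic ribosomal proteins lie at 8.25%, the interferon-gamma response at 4.34% and guanylate-binding proteins at 0.505%.

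Signalling components were expressed at moderate levels beneath their products. The receptor chains Ifngr1 and Ifngr2 stood at 82.9 ± 3.0 and 59.6 ± 1.0 TPM. Jak1 stood at 67.9 ± 1.5 TPM and Jak2, the partner kinase, at 15.1 ± 2.2 TPM. Stat3 stood at 160, 153 and 183 TPM, and Stat2, a factor of type I interferon signalling, at 130 ± 3.2 TPM. The feedback inhibitor Socs1 stood at 66.3 ± 0.92 TPM. Of the type I interferon receptor, Ifnar2 stood at 193 ± 2.8 TPM. Tyk2, a kinase of that receptor, was below the limit.

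Among the interferon regulatory factors, Irf1 led at 674, 663 and 686 TPM. Irf8, a factor of the myeloid lineage, stood at 549, 560 and 556 TPM. Irf7 followed at 399 ± 9.1 TPM, Irf5 at 269 ± 3.0, Irf2 at 64.3 ± 2.4 and Irf9 at 59.7 ± 0.18. Irf3 stood at 11.4 ± 2.0 TPM, and Irf4 was below 1 TPM. None of the neighbours in this order overlapped. In the wider list of 62 transcription factors of macrophages, 59 were members. Spi1, which encodes PU.1, ranked behind Irf8 at 397 ± 14 TPM, and Batf2 stood at 176 ± 1.2 TPM.

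Guanylate-binding proteins, which attack vacuoles that hold pathogens, were dominated by 1 gene. Gbp2, on chromosome 3 (GRCm38, 142620602 to 142638008), held 79.2% of the TPM of the family and 0.400% of all members' TPM. Gbp3 stood at 326 ± 16 TPM, Gbp5 at 259 ± 12, Gbp9 at 149 ± 6.5 and Gbp7 at 141 ± 8.9, and the last pair overlapped. Gbp4 and Gbp8 stood at 32.4 ± 1.0 and 29.7 ± 1.6 TPM, Gbp11 at 14.6 ± 0.99 and Gbp6 at 5.998 ± 0.85. All 9 were members. Gbp2b and Gbp10 had no entry among the deposited values, so the shares of the family leave them out. These genes lie in clusters of similar sequence, so values within the family are uncertain.

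Immunity-related GTPases, which act on the same vacuoles, were spread more evenly. Iigp1 stood at 973, 979 and 1054 TPM and Irgm1, a regulator of the family, at 972, 969 and 1025 TPM, and the 2 overlapped. Ifi47 followed at 780 ± 12 TPM, Tgtp2 at 669 ± 28, Igtp at 530 ± 7.0 and Gm12250 at 416 ± 11. Irgm2, Tgtp1 and Gm4951 stood between 113 and 152 TPM. Of 12 genes, 11 were members, and Irgc1 was listed at 0. The most abundant gene held 20.6% of the family's TPM. Tgtp1 and Tgtp2 are near-identical and share reads, and the annotated Irgm2 gene (chromosome 11, 58199618 to 58222782) overlaps Igtp (58199556 to 58207591), so their separate values are uncertain. Together the IRG family held 0.534% ± 0.016 of the members' TPM and the GBP family 0.505% ± 0.017.

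All 40 genes of the type I interferon-stimulated list were members and held 1.53% ± 0.038. Ifitm3, which blocks virus entry at membranes, stood at 3781, 3682 and 3740 TPM. Bst2, or tetherin, stood at 1674 ± 26 TPM. Samhd1, which degrades nucleotides, stood at 1023 ± 31 TPM, Isg15 at 565 ± 36 and Ifit2 at 409 ± 38. Isg15 (533, 558 and 604 TPM) and Ifit2 (372, 406 and 448 TPM) were lowest in replicate 1 and highest in replicate 3.

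**Figure D5:**
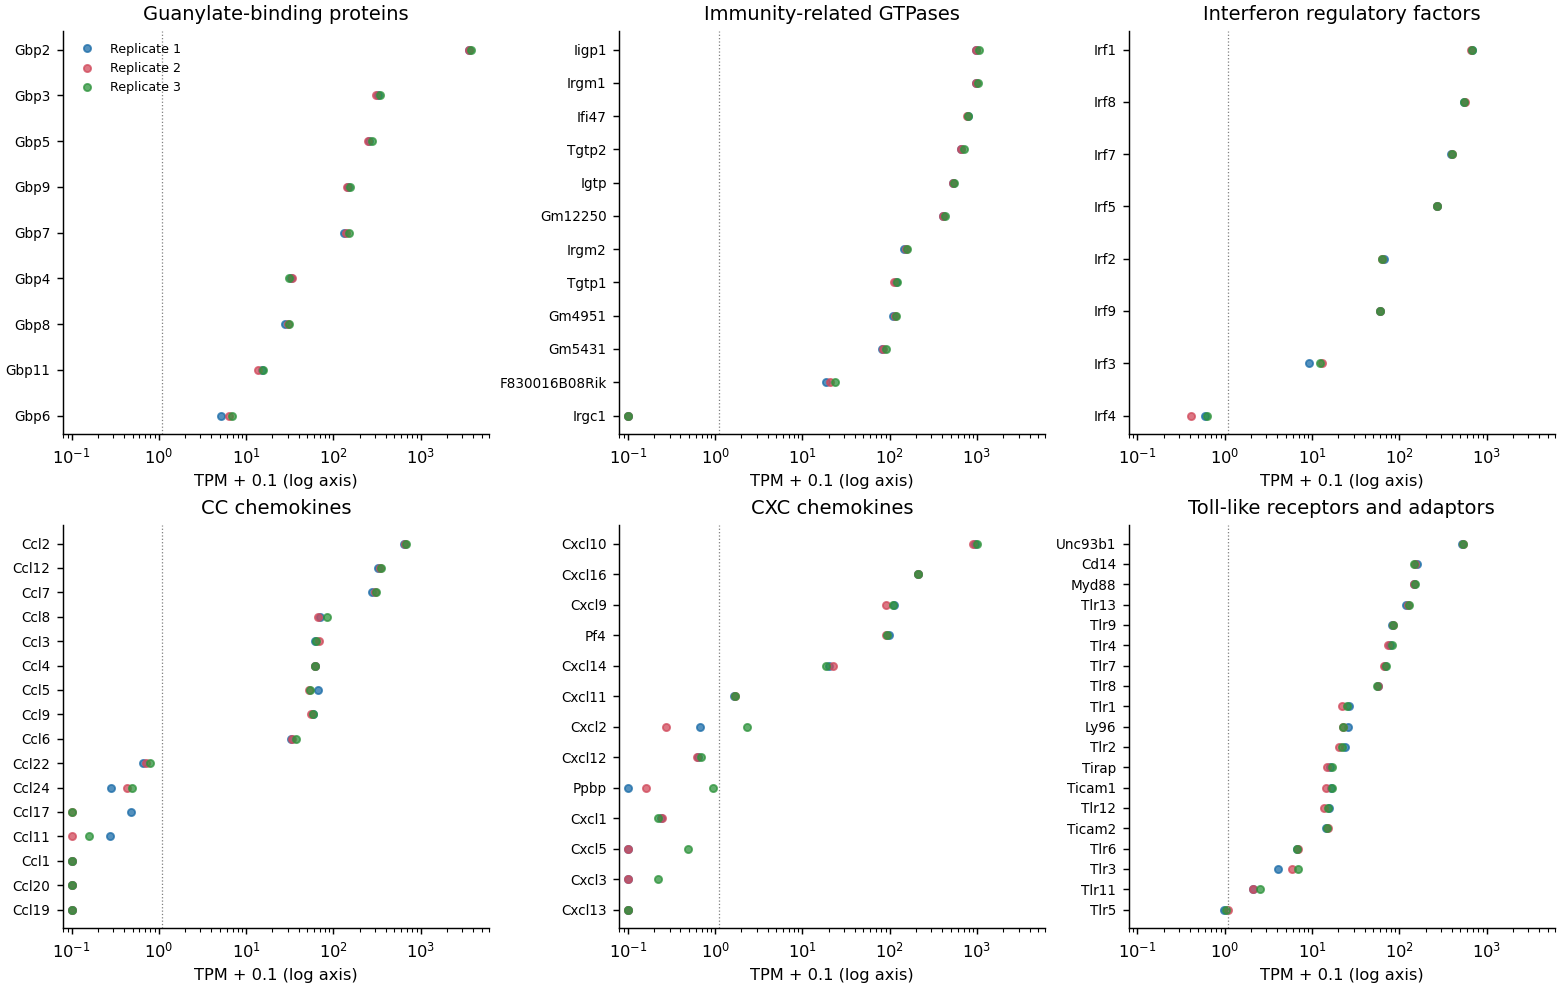
TPM + 0.1 on a log axis for genes of 6 families, members and non-members, ordered by mean; each point is 1 library and the vertical line marks 1 TPM + 0.1. Gbp2 lies at 3654 TPM against 326 TPM for Gbp3, while the leading immunity-related GTPases lie near 1002 and 989 TPM.

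MHC class I and peptide loading held more of the TPM than class II and antigen processing, at 2.47% ± 0.030 against 0.705% ± 0.012. All 19 genes of the class I list were members. H2-D1 stood at 3132, 3079 and 2990 TPM and H2-K1 at 2294, 2248 and 2261 TPM, with no overlap. B2m exceeded H2-K1 4.84 ± 0.10 times and H2-D1 3.58 ± 0.14 times. The peptide transporter gene Tap1 stood at 338 ± 6.0 TPM and Calr, a chaperone of peptide loading, at 1829 ± 23 TPM. The classical and nonclassical class I genes are alike in sequence, so reads may be split among them.

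Of 13 genes of class II and antigen processing, 11 were members. Cd74, the invariant chain, stood at 901, 833 and 841 TPM, H2-Ab1 at 294, 275 and 287 TPM and H2-Aa at 198, 183 and 199 TPM. The invariant chain stood 4.45 ± 0.18 times above H2-Aa. Ciita, the master regulator of class II, stood at 34.6 ± 0.83 TPM. H2-Eb1, a chain of the I-E molecule, was at 2.06, 2.11 and 0.862 TPM and so was not a member. Most of this list's TPM came from Ctss, a protease that trims the invariant chain, at 3748 ± 75 TPM (58.3% of the list).

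The immunoproteasome exceeded its constitutive counterpart at 2 of 3 catalytic positions. Psmb8 stood at 992, 985 and 943 TPM and Psmb5, the subunit it replaces, at 237, 221 and 225 TPM, a ratio of 4.27 ± 0.16. Psmb10 stood at 433 ± 5.6 TPM and exceeded Psmb7 1.498 ± 0.030 times. Psmb9, at 165 ± 3.9 TPM, stood at 0.346 ± 0.0014 times the level of Psmb6. The activator genes Psme1 and Psme2 stood at 635 ± 4.9 and 1099 ± 24 TPM, 9.23 ± 0.60 and 16.0 ± 0.83 times the level of Psme3. The 14 constitutive core subunits were more even, from 87.9 TPM (Psma2) to 476 TPM (Psmb6).

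Secreted signals covered the whole range of abundance. Spp1, or osteopontin, was the most abundant cytokine at 3952, 3779 and 3946 TPM. Mif stood at 805 ± 27 TPM and Tgfb1 at 216 ± 2.8 TPM. The antagonists Il1rn and Il18bp stood at 121 ± 6.0 and 91.0 ± 4.0 TPM, above Tnf at 65.5 ± 2.5 TPM. Il1b, Il6, Il12a, Il12b and Ifnb1 were not members, and 20 of 35 listed cytokines were.

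The CXC chemokines were led by Cxcl10, with 68.8% of their TPM, and the CC chemokines by ligands of CCR2. Cxcl10, which recruits T cells through CXCR3, stood at 953, 906 and 989 TPM. Cxcl9, a ligand of the same receptor but not the next CXC chemokine in order, stood at 111, 91.6 and 108 TPM. This was 0.109 ± 0.0078 times the level of Cxcl10. Cxcl11, the other such ligand, stood at 1.57 ± 0.040 TPM. Ccl2, Ccl12 and Ccl7, ligands of CCR2 that draw monocytes, stood at 665 ± 21, 342 ± 13 and 294 ± 16 TPM. Ccl3, Ccl4, Ccl5, Ccl8 and Ccl9 lay between 57.5 and 73.1 TPM, and all neighbours among them except Ccl3 and Ccl4 overlapped. Of the neutrophil-attracting chemokines, Cxcl1, Cxcl2, Cxcl3 and Cxcl5 were not members.

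Among receptors, those of antibody were abundant. Fcer1g, the signalling chain of Fc receptors, stood at 2515 ± 55 TPM, Fcgr3 at 1247 ± 17 TPM, Fcgr4 at 872 ± 14 TPM and Fcgr1 at 668 ± 2.4 TPM. The inhibitory receptor gene Fcgr2b stood at 34.3 ± 0.88 TPM, so Fcgr4 exceeded it 25.4 ± 0.74 times. The anaphylatoxin receptor genes C3ar1 and C5ar1 stood at 273 ± 6.2 and 115 ± 2.0 TPM. Unc93b1, the chaperone that brings nucleic acid-sensing Toll-like receptors to endosomes, stood at 532 ± 7.1 TPM. Among these receptors, Tlr13 stood at 124 ± 5.9 TPM, Tlr9 at 84.2 ± 1.8 and Tlr7 at 68.8 ± 2.1. Tlr4, the receptor for lipopolysaccharide, stood at 77.8 ± 3.7 TPM, with Cd14 at 153 ± 5.7 TPM.

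Molecules read by T cells were also present. The checkpoint ligand gene Cd274, which encodes PD-L1, stood at 119, 124 and 129 TPM. Its relative Pdcd1lg2 was not a member. The costimulatory genes Cd86 and Cd40 stood at 75.5 ± 3.0 and 113 ± 8.5 TPM, and Cd80 at 2.04 ± 0.79 TPM. Sirpa, the receptor of the CD47 signal, led this list at 596 ± 12 TPM.

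Effector genes of killing differed widely. Cyba, the small subunit of the phagocyte oxidase, stood at 1898 ± 42 TPM, and its partner Cybb at 311 ± 16 TPM. Irg1, the older symbol of Acod1, which makes itaconate, stood at 144, 128 and 143 TPM. Nos2, the inducible nitric oxide synthase, stood at 4.23, 2.14 and 3.11 TPM, near the foot of the ranking. Arg1, its competitor for arginine, and Ido1, which degrades tryptophan, were not members. Among sensors of cytosolic nucleic acids and of cell death, Zbp1 stood at 537 ± 8.3 TPM, Casp1 at 261 ± 5.5 TPM, and Gsdmd at 99.6 ± 1.5 TPM.

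The complement component C1q held 1.06% ± 0.023 through 3 genes. C1qb stood at 4389 ± 64 TPM, C1qc at 3131 ± 89 and C1qa at 2201 ± 62, and C1qb exceeded C1qa 1.99 ± 0.028 times. Their products assemble in equal numbers. C3, the central component, stood at 35.9 ± 4.6 TPM. Properdin, encoded by Cfp, stood at 288 ± 2.9 TPM.

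The lysosomal list had 51 of 52 genes as members, and 36 of them exceeded 100 TPM. Behind Ctsd, Psap and Lyz2 came the cysteine proteases Ctsb (3990 ± 30 TPM) and Ctss. The cathepsin inhibitor Cst3 stood at 2660 ± 31 TPM and the progranulin gene Grn at 2621 ± 39 TPM, and these overlapped. In lipid handling, Apoe stood at 2952, 3035 and 2951 TPM, Gpnmb at 1699 ± 5.4 TPM, and Lpl (1106 ± 17) overlapped Trem2 (1094 ± 14).

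In the respiratory chain, complex IV, the subject of the series, had the largest share. Its 3 mitochondrially encoded subunits held 2.44% ± 0.041 and the 16 nuclear members 0.688% ± 0.015. Mitochondrially encoded subunits of complex I held 1.197% ± 0.018 through 7 genes, those of complex V 0.662% ± 0.020, and mt-Cytb of complex III 0.291% ± 0.0046. Among nuclear subunits Cox6a1 stood at 1374, 1320 and 1251 TPM and Cox4i1 at 1126, 1112 and 1054 TPM, both lowest in replicate 3. The transcript of mt-Co1 exceeded Cox4i1 8.13 ± 0.32 times. Both kinds of transcript were measured after poly(A) selection, and how well this retains mitochondrial mRNAs was not tested.

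AA467197, which encodes NDUFA4L3 and hosts miR-147 and is 1 of the genes deleted elsewhere in the series, stood at 365, 358 and 355 TPM in wild type (rank 421; chromosome 2, 122636986 to 122641191, GRCm38). This was 0.328 ± 0.0082 times the level of Cox4i1. Ndufa4, the gene of the paralogous complex IV subunit, was listed at 0, 0.303 and 0 TPM. Ndufa4l2, the third relative, stood at 0.239, 10.8 and 7.71 TPM and is among the genes low only in replicate 1. The 0 for Ndufa4 cannot be read as absence, since Idh3a, Pcx and Tyrobp were listed at 0 as well. Ndufa9, a nuclear subunit of complex I, also failed the rule, while the other 35 listed nuclear subunits of that complex were members.

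Ribosomal proteins, most of them needed in equal numbers in the ribosome, were uneven in TPM. Their median was 843 TPM, with the 10th and 90th percentiles 6.57-fold apart, against 2.56-fold for the constitutive proteasome core. Mitochondrial ribosomal proteins (7.94-fold), mitochondrially encoded mRNAs (6.93-fold) and translation factors (13.5-fold) spread more than the cytosolic ones. Rplp1 was highest at 3530 ± 113 TPM. Rps12, Rpl5, Rpl12 and Rps25 stood at 9.88 ± 2.1, 30.9 ± 0.44, 37.7 ± 1.7 and 70.8 ± 3.4 TPM, each below 10% of the median. Also below it were the related entries Rpl7l1, Rps4l and Rpl3l, at 77.3, 7.25 and 1.60 TPM. Rps4l is annotated as a pseudogene, and all of these entries are part of the 6.57-fold spread. Processed copies of ribosomal protein genes share reads with their parents, so single values are uncertain. Of all members, 194 were annotated as pseudogenes and held 1.31% ± 0.037, and 24 of them exceeded 100 TPM, with Gm10275 the highest at 1457 ± 16 TPM.

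Glycolysis and lactate held 1.64% ± 0.018, led by Pkm (3315 ± 57 TPM), Gapdh (2961 ± 36 TPM) and Aldoa (1667 ± 26 TPM). The hexokinase gene Hk3 stood at 1014 ± 11 TPM. Tpi1, an enzyme of the same pathway, stood at 35.2, 15.1 and 12.7 TPM. The transcript set behind the values is not given, so whether the Tpi1 transcript is scarce cannot be told. The cycle of citrate and succinate held 0.280% ± 0.0061, with Sdhb highest at 298 ± 16 TPM. All 37 cell cycle genes were members. Pcna, the clamp of DNA replication, stood at 1178 ± 4.4 TPM, Top2a at 221 ± 5.4 TPM and Mki67 at 58.1 ± 2.0 TPM.

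The most abundant genes had shorter annotated transcripts. Over the 98 of the 100 most abundant genes matched to the annotation, the median longest transcript was 1336 bases, against 3327 bases over all matched members. Across members, the rank correlation of TPM with this length was -0.214 and with GC content 0.054, given as descriptions. TPM divide by length, and how the estimated length enters was not tested. The TATA letters TATAAA were searched on both strands. They stood in 15 of the 69 top 100 genes with a promoter window (21.7%). The share was 8.37% of the 8349 members with a window and 15.7% of all genes with one. Protein-coding genes held 97.7% of the members' TPM. Noncoding RNAs such as Malat1, Neat1 and Xist and the mitochondrial rRNAs had no entry among the deposited values. The share thus holds only for the genes listed there. Chromosome 7, with Ftl1, held 9.10% and chromosome 11 held 8.94%, while the 13 mitochondrial genes held 4.59%.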

How the data were processed

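Polyadenylated RNA from 3 wild-type libraries was analysed. The deposited values were TPM, 1 value per gene and library. The authors' tools were kallisto, DESeq2 and edgeR, per the submitters' processing notes, which also name mm10 and GRCm39 without a role. Versions, the transcript set and how transcripts were summed are given in none of the sources used here. Named genes summed to between 914713 and 915431 TPM, so 8.45% to 8.53% of each library lay outside the table. One unnamed entry, about 0.002%, was left out. TPM are shares of a fixed total and hold no depth, so no counting interval is given.

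Genes at 1 TPM or more in all 3 libraries were kept. Shares are of the TPM summed over members. Means, SDs, ranks, ratios per library and range overlaps were computed with Python 3.11.15, numpy 2.4.6, pandas 2.3.3 and scipy 1.17.1, and figures drawn with matplotlib 3.10.9. Scripts were checked on simulated data. A few genes counted in the totals are not reported here by name. No test was run, as nothing was compared. Coordinates and transcript lengths come from GENCODE M21 (GRCm38), where 99.3% of members matched by symbol, and promoters from RefSeq (GRCm38.p6). Genes were described by 59 lists, with 1234 symbols found, 7 of them by an older symbol, and 34 not in the table. The members and lists were chosen with earlier results of these data known. Genes named are the 30 most abundant, the leading members of each list, given markers, the targeted genes, the widest spreads and the genes nearest the limit; others were chosen after their values were seen. Alternatives were other limits, no limit, another pseudocount, another denominator, median-of-ratios scaling, leaving out mitochondrial transcripts and leaving out each library.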

Additional observations from a re-analysis of the deposited data

How the results depend on the processing

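No paired analysis was possible because the results come from no test and involve 1 group. With a limit of 5 TPM the share of the 10 most abundant genes was 8.89%, that of the 100 most abundant 31.2% and the median SD 0.058 on the log2(TPM + 1) scale; with 0.5 TPM this SD was 0.068. Without a limit, 29763 genes entered, the 100 most abundant held 30.9% and the median SD was 0.031, by construction, as genes at 0 were added. A pseudocount of 0.1 gave a median SD of 0.070 and median-of-ratios scaling 0.065, as in the main analysis. Without mitochondrially encoded transcripts the top 10 held 8.29%, the top 100 29.4%, ribosomal proteins 8.64% and the interferon-gamma response 4.54%. Over the whole library, with TPM outside the table included, these shares were 8.06%, 28.3%, 7.53% and 3.96%, with 4.19% for mitochondrial mRNAs. Leaving out 1 library in turn, between 10549 and 10658 genes were kept and the median SD, now over fewer libraries, lay between 0.049 and 0.056. The shares then lay between 8.81% and 8.86% (top 10), 30.92% and 30.99% (top 100), 4.57% and 4.62% (mitochondrial), 8.21% and 8.30% (ribosomal) and 4.31% and 4.37% (interferon-gamma response). Of the 7328 members with a mean of 10 TPM or more, 9 means moved by more than 1.5 times: without replicate 3, Gm12895 and Gm12896 were 35.9 TPM (from 190) and S100a8 8.76 TPM; without replicate 2, Hba-a2 was 10.2 TPM (from 46.1), Car3 27.2 TPM (from 44.3), Hbb-bs 12.2, Hba-a1 9.15 and Gm9372 8.92 TPM; and without replicate 1, Tpi1 was 13.9 TPM. Other limits left each mean as it was, since they decide only which genes are kept. The depth of the libraries is unknown.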

Other observations

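Some of the most abundant transcripts were in none of the gene lists. Of the 100 most abundant genes, 10 were in no list. Npy, which encodes neuropeptide Y, stood at 1368, 1342 and 1317 TPM (rank 93). Akr1a1, an aldehyde reductase, stood at 1715 ± 35 TPM and Fxyd5, a regulator of the sodium pump, at 1648 ± 19 TPM. Cd72, a C-type lectin receptor best known from B cells, stood at 1302, 1249 and 1189 TPM. The B-cell markers Cd79a, Cd79b, Ms4a1 and Pax5 were below 1 TPM in every library, while Ighm stood at 44.2 TPM.

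Of 21 genes of alternative activation, 10 were members, against 35.2% of all named genes. The median of these members was 12.5 TPM, against 21.5 TPM over all members, and 5 of them lay below 10 TPM. Tgm2, a transglutaminase, stood at 695 ± 2.2 TPM, Mrc1, the mannose receptor, at 38.4 ± 2.5 TPM and Cd163, the haptoglobin-hemoglobin receptor, at 1.96 ± 0.043 TPM. Retnla, Ccl17, Ccl22 and Ccl24 were not members.

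The pseudogene entries Gm12895 and Gm12896 were listed with the same values, 30.5, 41.2 and 498 TPM. Another such entry, Gm28925, stood at 688, 346 and 346 TPM.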
